A study of Canis lupus familiaris with 4 samples.

Results

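The response of MDCK cells to low oxygen was read from the 2 arrays of control cells, 1 from normoxia (16% O2) and 1 from hypoxia (1% O2), among the 4 arrays of the series. MDCK is an epithelial line derived from dog kidney, here strain II (CCL-34), grown as a flat culture with 24 h in normoxia before the 24 h at the oxygen level compared. The control cells are labelled wild type for HIF2A, and by the study's methods they went through retroviral infection with an empty shRNA cassette. The other arrays hold cells labelled HIF2A knockdown, made with a retroviral shRNA against *EPAS1*, the gene of HIF2α, at the same oxygen levels and times. Each condition has 1 array, so a difference has no error, no p-value and no check by a replicate, and cannot be told apart from the variation of a single culture or array. Members are the genes with a measurable level: of 15115 genes with a probe set, 9749 reached an intensity of 28.75, the median of the table, on at least 1 of the 4 arrays.

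When oxygen falls, the prolyl hydroxylases that mark the HIFα proteins for destruction slow down, HIF1α and HIF2α accumulate, and with their partner ARNT they switch on genes for sugar use, blood vessel growth, red cell formation and acid export. Other oxygen-dependent enzymes act on collagen and on histones, and low oxygen also slows the respiratory chain and costly processes such as making ribosomes. In the kidney, where oxygen tension is low in the medulla, tubule cells live with this response.

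Values are linear intensities as deposited, and a difference is hypoxia minus normoxia on the scale of log2(intensity + 16), where 1 stands for 2-fold and changes of weakly detected genes are understated. The background was read from 63 control probe sets that match no dog gene, whose 95th percentile was 27.2 on the normoxic and 25.0 on the hypoxic control array. The median of all intensities was 28.2 and 29.1 on these arrays, and the log2 values of the 9749 genes correlated across genes at 0.978. Markers of kidney epithelium were mostly present: *EPCAM*, an epithelial adhesion molecule, was at 11719 in normoxia and 11679 in hypoxia, and *KRT18*, a keratin of simple epithelia, at 13868 in normoxia and 13257 in hypoxia. The nephric factors *PAX8* and *PAX2* were at or below 5.24 on both arrays, under the background. *PAX8* was at 1.0 on both, near the floor of the table, so these values do not show that the factors are absent. Of 10 fibroblast, 10 endothelial and 9 leukocyte markers with a probe set, 1, 2 and 6 passed the filter, and their summed intensities were 145, 224 and 245 in normoxia and 254, 226 and 232 in hypoxia, against 38983 and 39678 for 10 kidney epithelial markers. The difference in the fibroblast sum lay in *PDGFRA*, a receptor for platelet-derived growth factor, at 31.5 in normoxia and 145 in hypoxia, while *COL1A1* and *COL3A1* were at 3.57 and 8.88 in normoxia and 5.54 and 9.86 in hypoxia. Its part in other results was not tested, and in RNA from a whole culture fewer cells of a type and less RNA per cell cannot be told apart.

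Hypoxia was marked by higher rather than lower transcripts. Of the 9749 genes, 297 (3.05%) had a level in hypoxia 2-fold or more above normoxia and 53 (0.544%) 2-fold or more below, so 84.9% of the 350 genes were higher. The tail was long on one side: 37 genes were 4-fold or more higher, among them 5 that passed 8-fold, against 1 gene 4-fold or more lower. The bulk of genes hardly moved, with a median difference of 0.025 (-0.065 with each array centred on its median), an SD of 0.449 across genes, and 5th and 95th percentiles of -0.56 and 0.82. Of 5978 probe sets without a gene symbol 3.16% were higher and 0.887% lower. In 45 (15.2%) of the 297 genes the normoxic value lay below the background percentile, and in 11 (20.8%) of the 53 the hypoxic value did, so the sizes of these differences are loose. Over all 9749 genes the shares were 6.86% in normoxia and 5.10% in hypoxia.

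**Figure D1:**
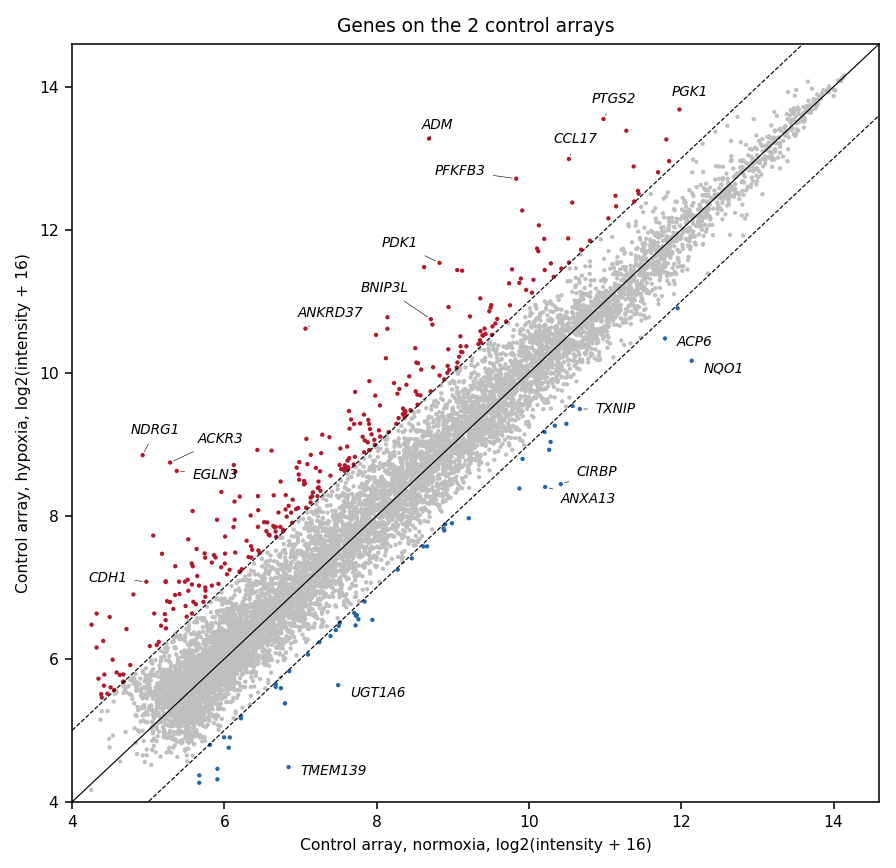
Intensity of 9749 genes on the normoxic (x axis) and hypoxic (y axis) control arrays, both as log2(intensity + 16), 1 point a gene. The solid line marks equality and the dashed lines a 2-fold difference; 297 red points lie above and 53 blue points below, with *ADM* farthest above and *TMEM139* farthest below.

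Oxygen sensing and the transcripts that limit it stood high in the list. *EGLN3*, a prolyl hydroxylase that acts on HIFα, was at 25.5 in normoxia and 379.5 in hypoxia, a difference of 3.25, and a second probe set gave 3.85. The normoxic values of these probe sets lay within the background, so the sizes are loose. *EGLN1*, the main hydroxylase of normal oxygen, was at 224 in normoxia and 928 in hypoxia (1.98), whereas *EGLN2*, the third of the family, was at 140.3 in normoxia and 188 in hypoxia (0.39). The family thus divided, with 2 of its 3 members past 2-fold. *EPAS1* was at 44.6 in normoxia and 116 in hypoxia (1.13), and *HIF1A*, the gene of HIF1α, was at 3755 in normoxia and 2651 in hypoxia (-0.50), with -0.29 to -0.02 at its other probe sets. The partners *ARNT* (0.072) and *ARNT2* (0.22) and the ubiquitin ligase subunit *VHL* (0.041) lay near 0. Of 13 genes of oxygen sensing, 3 were 2-fold higher and 11 above 0, with a median of 0.34, beside 5182 of 9749 above 0 and a median of 0.025 over all genes.

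The largest difference of any gene belonged to a secreted peptide. *ADM*, the gene of the vasodilator adrenomedullin, was at 397 in normoxia and 9897 in hypoxia, a difference of 4.59. *VEGFA*, the main growth factor of blood vessels, was at 1447 in normoxia and 3752 in hypoxia (1.36), and a second probe set gave 1.46. *ANGPTL4*, a secreted inhibitor of lipoprotein lipase, was at 45.6 in normoxia and 97.1 in hypoxia (0.88), with 0.53 to 1.17 at its other probe sets, so that whether it passed 2-fold depends on the probe set. Of 12 secreted and angiogenic HIF targets, 2 were 2-fold higher and 10 above 0 (median 0.36). The gene of a relative, *VEGFB*, was lower, at 1076 in normoxia and 785 in hypoxia (-0.45), although a second probe set gave 0.12. *EPO*, the red cell hormone, was at 26.1 in normoxia and 23.9 in hypoxia, near the background. *CCL17*, a chemokine that draws T cells, was at 1457 in normoxia and 8120.3 in hypoxia (2.47), and *FST*, the gene of the activin antagonist follistatin, at 266 in normoxia and 1552 in hypoxia (2.47). *INHBA*, which encodes the activin A subunit that follistatin binds, was at 947 in normoxia and 4923 in hypoxia (2.36). Ligand and antagonist were thus both more than 4-fold higher.

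Many of the highest differences fell outside metabolism. *NDRG1*, a stress-induced gene often used as a mark of hypoxia, was at 14.4 in normoxia and 445 in hypoxia (3.92), its normoxic value within the background. *ANKRD37*, a small ankyrin repeat gene, was at 118 in normoxia and 1556 in hypoxia (3.55). *ACKR3*, a decoy receptor for the chemokine CXCL12, was at 23.1 in normoxia and 413 in hypoxia (3.46), again from within the background. *DPP4*, a surface protease that trims peptide hormones and chemokines, was at 53.7 in normoxia and 403 in hypoxia (2.59). *IL13RA2*, a decoy receptor for interleukin 13, was at 238 in normoxia and 1462 in hypoxia (2.54). *ACKR3* and *IL13RA2* both encode decoy receptors, a class that was not counted over all genes. *TFRC*, the transferrin receptor that brings iron into cells, was at 31.9 in normoxia and 252 in hypoxia (2.48), *CLCN4*, a chloride exchanger of endosomes, at 54.7 in normoxia and 377 in hypoxia (2.47), and *FAM20B*, a kinase of proteoglycan synthesis, at 46.3 in normoxia and 307 in hypoxia (2.37). The probe sets of *FAM20B* were unequal, the others giving 0.29 to 2.23. *ISG20*, an RNA exonuclease induced by interferon, was at 70.4 in normoxia and 469 in hypoxia (2.49), and *ANKRD1*, a nuclear target of YAP signalling, at 517 in normoxia and 2755 in hypoxia (2.38).

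Glucose uptake and glycolysis had the highest median of the 43 pathway lists with at least 5 kept genes, 0.86 over 19 genes, with 8 of them 2-fold higher and 17 above 0. The regulator *PFKFB3*, whose product drives phosphofructokinase, was at 896 in normoxia and 6706 in hypoxia (2.88). Of phosphofructokinase itself, *PFKL* was at 348 in normoxia and 1284 in hypoxia (1.84), *PFKP* at 385 in normoxia and 712 in hypoxia (0.86) and *PFKM* at 201 in normoxia and 198 in hypoxia (-0.026). The liver-type gene thus stood apart from the muscle-type gene. *ALDOC*, the brain-type aldolase, was at 266 in normoxia and 1739 in hypoxia (2.64), the isomerase *GPI* at 1503 in normoxia and 5319 in hypoxia (1.81) and the kinase *PGK1* at 4012 in normoxia and 13129.7 in hypoxia (1.71). Transporters that export lactate were also higher, with *SLC16A1* at 183 in normoxia and 690.3 in hypoxia (1.83) and *SLC16A3* at 31.6 in normoxia and 116 in hypoxia (1.47). *AK4*, a mitochondrial adenylate kinase, was at 378 in normoxia and 2836 in hypoxia (2.85). The probe set of *GAPDH* was at 1.0 in normoxia and 2.47 in hypoxia, near the floor of the table, and was not used.

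How large glycolysis appears depends on the probe set. The glucose transporter gene *SLC2A1* was at 6820.2 in normoxia and 12219.6 in hypoxia by its brightest probe set (0.84), and at 1143 and 4311 by the dimmest (1.90). *ENO1*, the gene of enolase, was at 12966 and 17202 by its brightest probe set (0.41), and at 134 and 468 by its dimmest (1.69). *HK1*, a hexokinase, even changed sign, with 119.9 and 92.3 by the brightest (-0.33) against 48.7 and 205 by another (1.77). In 11 of the 14 glycolysis genes with several probe sets, another probe set gave a larger difference than the brightest, as it did in 57.8% of all genes with several. Taking the dimmest kept probe set of each gene, the median was 1.47 and 13 of the 19 genes were 2-fold higher, a comparison added after the values were seen. *PKM*, the gene of pyruvate kinase, was the reverse, at 17.5 in normoxia and 195 in hypoxia (2.66) by the brighter and 0.83 by the other, both low on the scale.

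**Figure D2:**
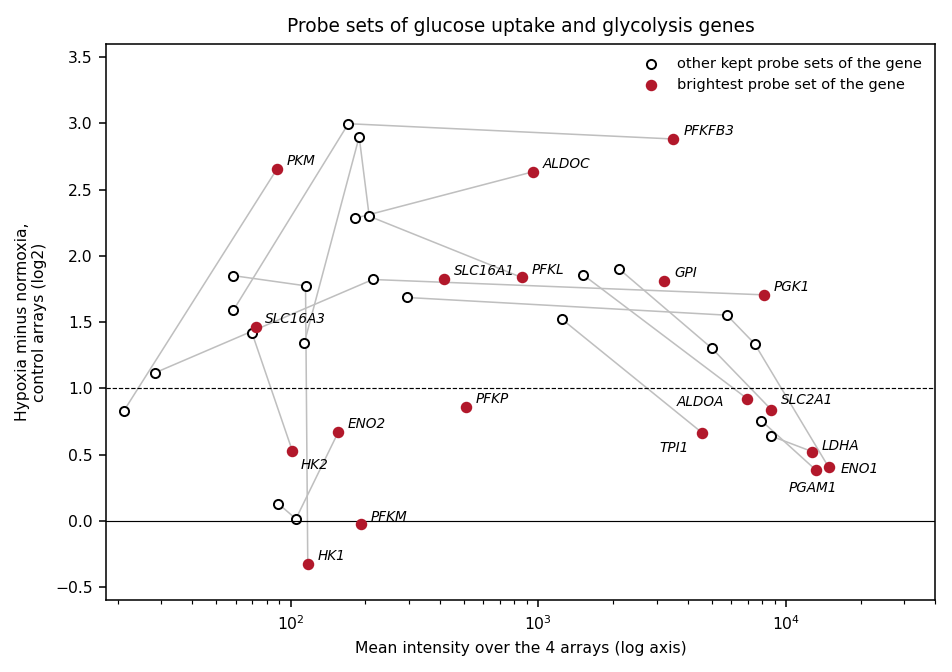
Difference between the control arrays (y axis, log2) against the mean intensity over 4 arrays (x axis, log scale) for each kept probe set of 19 glucose uptake and glycolysis genes. Grey lines join probe sets of a gene and red points mark the brightest; the brightest probe sets of *ENO1*, *LDHA*, *PGAM1*, *SLC2A1*, *ALDOA* and *TPI1* lie below the dashed 2-fold line and below the others of the same gene.

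A few mitochondrial genes were 2-fold higher, while lists of mitochondrial machinery leaned lower. *PDK1*, the kinase that closes pyruvate dehydrogenase, was at 438 in normoxia and 2956 in hypoxia (2.71), and *BNIP3L*, a receptor for removing mitochondria by autophagy, at 403 in normoxia and 1706 in hypoxia (2.04). *LONP1*, a protease of the mitochondrial matrix, was at 515 in normoxia and 1062 in hypoxia (1.02), and *IDH2*, the mitochondrial isocitrate dehydrogenase that makes NADPH, at 3653 in normoxia and 7954 in hypoxia (1.12). The paralogue *BNIP3* was at 15.3 in normoxia and 26.1 in hypoxia and did not pass the filter. Against this, none of 53 subunits of the respiratory chain was 2-fold different, and 37 lay below 0, with a median of -0.13, beside 4565 of 9749 genes below 0. With each array centred on its median these were 48 of 53 and 5602 of 9749. Complex I and III subunits were lowest: *NDUFS1* was at 815 in normoxia and 447 in hypoxia (-0.84), *UQCRC1* at 6369 in normoxia and 3884 in hypoxia (-0.71) and *CYC1* at 1919 in normoxia and 1194 in hypoxia (-0.68). The differences were small and mostly in 1 direction.

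The same lean was seen in other mitochondrial genes. Of 70 genes of mitochondrial ribosomal proteins, 53 lay below 0 and none was 2-fold different (median -0.14), from *MRPS16* at 2354 in normoxia and 1385 in hypoxia (-0.76) to *MRPL1* at 1061 in normoxia and 1675 in hypoxia (0.65). *GFM1*, the elongation factor of mitochondrial translation, was at 1423 in normoxia and 608 in hypoxia (-1.21), with -0.60 to -0.34 at its other probe sets. Among 22 genes of import and biogenesis 16 lay below 0, and 1 was 2-fold lower, the DNA helicase *TWNK* at 47.8 in normoxia and 13.9 in hypoxia (-1.09), its hypoxic value within the background. In the tricarboxylic acid cycle and pyruvate gate, 19 of 29 genes lay below 0 (median -0.10), with the succinate ligase subunit *SUCLA2* at 949 in normoxia and 512 in hypoxia (-0.87) and the isocitrate dehydrogenase subunit *IDH3B* at 336 in normoxia and 185 in hypoxia (-0.81). Fatty acid oxidation had the lowest median of the lists, -0.25, with 14 of 20 genes below 0. *CPT1A*, which admits fatty acids to mitochondria, was at 1849 in normoxia and 1161 in hypoxia (-0.66), and *CPT2* at 1091 in normoxia and 733 in hypoxia (-0.56).

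Lipid synthesis stood on the other side. Of 21 sterol synthesis genes, 4 were 2-fold higher and 20 above 0, with a median of 0.61. The 4 were *INSIG1* at 475 in normoxia and 1269.8 in hypoxia (1.39) and *INSIG2* at 223 in normoxia and 607 in hypoxia (1.38), which encode retention proteins of the SREBP pathway, with the decarboxylase *MVD* (1.30) and the desaturase *SC5D* (1.10). Thus 2 of the 4 encode brakes on the pathway and 2 encode enzymes of it. *HMGCS1*, an early enzyme of the pathway, was at 5577 in normoxia and 10579.9 in hypoxia (0.92). In fatty acid synthesis 3 of 13 genes were 2-fold higher (median 0.39): the desaturase *FADS2* at 30.1 in normoxia and 188 in hypoxia (2.15), the elongase *ELOVL6* at 228 in normoxia and 548 in hypoxia (1.21) and the synthase *FASN* at 1629.6 in normoxia and 3362 in hypoxia (1.04), whose other probe sets gave -0.13 to 1.04. In lipid uptake and storage no gene of 14 was 2-fold different and 11 were above 0. *FABP3*, a fatty acid carrier, was at 6219 in normoxia and 11209.5 in hypoxia (0.85), and *PLIN2*, a coat protein of lipid droplets, at 1439 in normoxia and 2470.1 in hypoxia (0.77).

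Gene lists of chromatin, collagen and protein folding, which include oxygen-using enzymes, leaned higher. Genes of the Jumonji and TET families, most of which encode histone or DNA demethylases, had a median of 0.41, and the 17 that passed the filter were all above 0, or 15 of them with each array centred on its median. *KDM3A*, which removes methyl groups from histone H3, was at 299 in normoxia and 859.5 in hypoxia (1.48) and was the 1 gene of the list past 2-fold. *KDM5B* (0.70), *KDM6A* (0.64) and *KDM6B* (0.71) lay between. Of 12 collagen hydroxylases, lysyl oxidases and their partners, 11 were above 0 (median 0.56). *P4HA1*, which hydroxylates prolines in collagen, was at 476 in normoxia and 1920.3 in hypoxia (1.98) and was 2-fold higher at each of its probe sets (1.82 to 1.85 at the others). *LOX*, which cross-links collagen, was at 520.3 in normoxia and 999 in hypoxia (0.92), and the lysyl hydroxylase gene *PLOD1* at 190.2 in normoxia and 373 in hypoxia (0.92), both just under 2-fold. The oxidase *ERO1A*, which forms disulphide bonds in the endoplasmic reticulum, was at 1105 in normoxia and 4260.0 in hypoxia (1.93), and 18 of 23 chaperone genes of that compartment were above 0 (median 0.27).

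**Figure D3:**
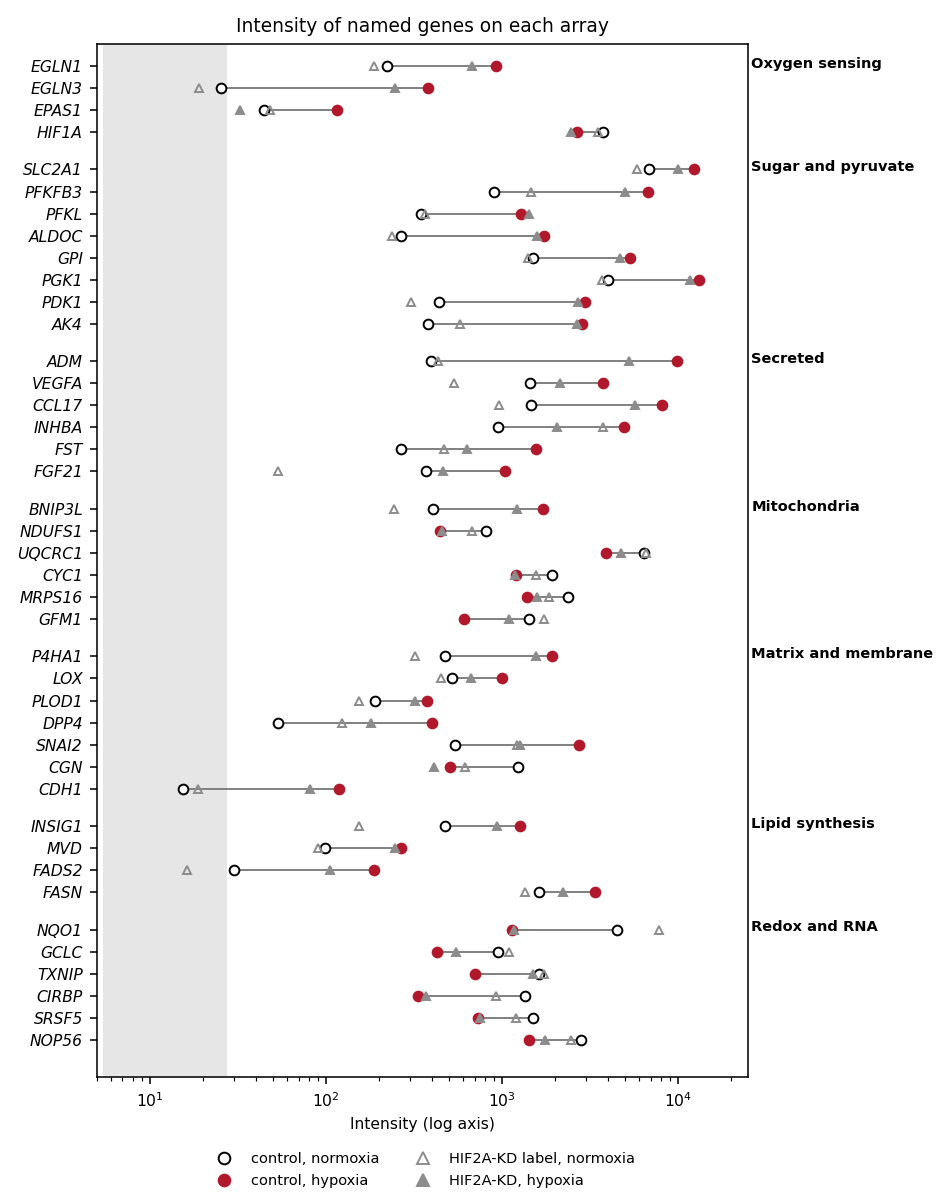
Intensity (x axis, log scale) of named genes grouped by role. Circles are the control arrays in normoxia (open) and hypoxia (red), joined by a line, triangles are the arrays labelled HIF2A knockdown in normoxia (open) and hypoxia (filled), and the grey band spans the background from the median to the 95th percentile of the control probe sets. Red lies far to the right of open circles for *ADM*, *EGLN3* and *PDK1*, and to the left for *NQO1*, *CIRBP* and *GFM1*.

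Transcription factors and signalling regulators formed a further group. Among 13 repressors and clock genes 4 were 2-fold higher (median 0.74): *ZNF395* (from 21.5 to 119.7, 1.86), *MXI1* (from 209 to 535, 1.29), an antagonist of MYC, *BHLHE40* (from 2248 to 5127, 1.18), a clock repressor, and *NFIL3* (from 1767 to 3669, 1.05). The normoxic value of *ZNF395* lay within the background. Other probe sets gave -0.0039 to 1.41 for *MXI1* and 0.55 to 2.14 for *BHLHE40*. The close relative *BHLHE41* was instead at 2701 in normoxia and 2155 in hypoxia (-0.32). Among 22 Krüppel-like and immediate-early genes 4 were 2-fold higher (median 0.44). These were *KLF4* (from 54.3 to 230.4, 1.81), the phosphatases *DUSP5* (from 111 to 415, 1.77) and *DUSP1* (from 351 to 1114, 1.62), which switch off MAP kinases, and *JUN* (from 838 to 2422, 1.51). A second probe set of *KLF4* gave 0.22. *ERRFI1*, an inhibitor of the EGF receptor, was at 2469 in normoxia and 10685 in hypoxia (2.11), and *EGFR*, the receptor itself, at 646 in normoxia and 1356 in hypoxia (1.05). *DDIT4*, a brake on mTOR signalling, was at 167 in normoxia and 403 in hypoxia (1.20), whereas *TXNIP*, a brake on glucose uptake, was at 1611 in normoxia and 705 in hypoxia (-1.17).

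Stress pathways were mixed. In the integrated stress response 5 of 25 genes were 2-fold higher while the median was 0.065 (-0.025 with each array centred): *DDIT3* (from 184 to 579.7, 1.57), the hormone gene *FGF21* (from 368 to 1041, 1.46), *PPP1R15A* (from 922 to 2432, 1.38), which restores translation, *WARS1* (from 349 to 839, 1.23) and *ATF3* (from 137 to 310.1, 1.09). Other members, such as *SESN2* (from 27.0 to 12.9, -0.57) and *CARS1* (from 2580.2 to 1737, -0.57), lay below 0, so the list did not move as a block. *SESN2* was within the background on both arrays. Of 22 genes in the heat shock list 13 were above 0 and 9 below (median 0.16). The 2 that were 2-fold higher were *HSPB1* at 2640.0 in normoxia and 7550.1 in hypoxia (1.51) and *HSPH1* at 3560.3 in normoxia and 9818 in hypoxia (1.46), and the 1 that was 2-fold lower was the cold-induced *CIRBP* (-1.98). *HSPA4* (-0.36) and the cochaperone gene *BAG3* (-0.52) also lay below 0. *GADD45B*, a stress-response gene, was at 641 in normoxia and 2089.9 in hypoxia (1.68), and *SQSTM1*, an autophagy adaptor that is also an NRF2 target, at 53.5 in normoxia and 214 in hypoxia (1.72). Of 20 genes of renal transport and tubule identity 2 were 2-fold higher and 15 above 0 (median 0.17), with *NFAT5*, the factor of the response to hypertonic stress, at 107 in normoxia and 257 in hypoxia (1.15) and its target *SLC5A3*, an inositol transporter, at 82.3 in normoxia and 466 in hypoxia (2.29). Of 11 acid and carbon dioxide genes 6 were above 0 and 5 below (median 0.042, or -0.048 with each array centred). The 2 past 2-fold were *SLC4A7*, a bicarbonate importer, which was at 706 in normoxia and 1911 in hypoxia (1.42) and *CA12*, a surface carbonic anhydrase, at 21.5 in normoxia and 77.1 in hypoxia (1.31), while *CA9* was at 26.3 in normoxia and 20.1 in hypoxia, near the background. The normoxic value of *CA12* was within the background.

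Inflammatory genes leaned higher too. Of 25 NF-κB and chemokine genes 5 were 2-fold higher and 23 above 0 (median 0.47), *ACKR3* among them. *PTGS2*, the inducible enzyme of prostaglandin synthesis, was at 2003 in normoxia and 11974 in hypoxia (2.57), the apoptosis inhibitor *BIRC3* at 1160.1 in normoxia and 3735 in hypoxia (1.67), the NF-κB inhibitor *NFKBIA* at 667 in normoxia and 1555 in hypoxia (1.20) and the chemokine *CCL2* at 982 in normoxia and 2269.6 in hypoxia (1.20). In the same cells, the interferon list had a median of 0.17 with 3 of 37 genes 2-fold higher, *ISG20*, *DDX60* (1.44) and *GBP5* (1.20). Other interferon-induced genes lay below 0, such as *MX1* at 699 in normoxia and 381 in hypoxia (-0.85) and *ISG15* at 4344 in normoxia and 3036 in hypoxia (-0.51).

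Junction, matrix and mesenchymal genes differed member by member. *SNAI2*, a repressor of epithelial genes, was at 542 in normoxia and 2739 in hypoxia (2.31), *TGFB2*, a transforming growth factor, at 698 in normoxia and 1843 in hypoxia (1.38) and the neural cadherin gene *CDH2* at 309.5 in normoxia and 708 in hypoxia (1.15), although a second probe set of *CDH2* gave 0.25. Of 20 genes of the epithelial to mesenchymal transition 4 were 2-fold higher, and *VIM*, the mesenchymal filament gene, was at 17049 in normoxia and 17351 in hypoxia (0.025). *SNAI1* and *ZEB2* were at or below 12.0 on both arrays. *CDH1*, the gene of E-cadherin, was at 15.4 in normoxia and 119 in hypoxia (2.10), by 1 probe set whose normoxic value lay within the background. The paper measured its mRNA and protein in normoxic MDCK cells. The normoxic value therefore does not show that *CDH1* is absent, and the size of the difference is loose. *CTNNB1*, which encodes β-catenin, was at 8014 in normoxia and 9068 in hypoxia (0.18) and *TJP1*, the gene of ZO-1, at 2267 in normoxia and 2984 in hypoxia (0.39). In tight junctions *F11R*, a junctional adhesion molecule, was at 43.8 in normoxia and 230.3 in hypoxia (2.04) with 0.25 at a second probe set, and *CGN*, the gene of cingulin, at 1231 in normoxia and 508 in hypoxia (-1.25) with 0.10 at a second probe set. Of 28 collagens, laminins and integrins 2 were 2-fold higher (median 0.27), the integrin *ITGA2* at 3301 in normoxia and 7136 in hypoxia (1.11) and the laminin *LAMA3* at 1458 in normoxia and 2967 in hypoxia (1.02). *DOCK4*, which activates Rac1, was at 3.77 in normoxia and 8.92 in hypoxia, within the background. Its mRNA and protein were measured by the paper in normoxic MDCK cells, so these values do not show that it is absent.

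Lower transcripts were fewer and smaller. *TMEM139*, a membrane protein gene, had the largest lower difference, -2.36, from 98.8 in normoxia to 6.39 in hypoxia, a value within the background. *CIRBP*, an RNA-binding protein induced by cold, was at 1352 in normoxia and 332 in hypoxia (-1.98), and its other 4 probe sets gave -1.71 to -0.72. *NQO1*, a quinone reductase controlled by NRF2, was at 4488 in normoxia and 1134 in hypoxia (-1.97), with -1.22 to -0.56 at the others. Each probe set of both genes lay below 0. *ANXA13*, an annexin of epithelial membranes, was at 1170.3 in normoxia and 323 in hypoxia (-1.81), *SNHG3*, a host gene of small nucleolar RNAs, at 923 in normoxia and 318 in hypoxia (-1.49), and *ACP6*, a phosphatase of lysophosphatidic acid, at 3516 in normoxia and 1412 in hypoxia (-1.31). *IDO1*, which breaks down tryptophan, was at 576 in normoxia and 234 in hypoxia (-1.24), with -1.84 to -1.49 at the others, so all 3 of its probe sets were 2-fold lower. *TRIM37*, a ubiquitin ligase, was at 230.2 in normoxia and 77.4 in hypoxia (-1.40) and *CERKL*, a ceramide kinase-like gene, at 95.1 in normoxia and 25.6 in hypoxia (-1.42). *UGT1A6*, a detoxifying transferase, was at 164 in normoxia and 33.6 in hypoxia (-1.86), but -0.19 at a second probe set, and *KLC1*, a kinesin light chain gene, at 195 in normoxia and 72.5 in hypoxia (-1.26), with 0.21 to 0.97 at the others. *SPSB2* was at 201 in normoxia and 77.9 in hypoxia (-1.21), but -0.17 at a second probe set. The hypoxic values of *OR8S7*, *PLA2G1B*, *ASB2*, *ZNF322* and *OR10D1K*, also among the 20 lowest, were within the background.

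Several of these belong to detoxification and RNA handling. Of 23 NRF2 antioxidant targets 3 were 2-fold lower, *NQO1*, *UGT1A6* and *GCLC*, a subunit of the enzyme that starts glutathione synthesis, at 950.0 in normoxia and 428 in hypoxia (-1.12). *PRDX5*, a peroxidase, was at 2565 in normoxia and 1345 in hypoxia (-0.92) and *TXNRD1*, thioredoxin reductase, at 2942 in normoxia and 1718 in hypoxia (-0.77). Others of the list were higher, such as *MGST2*, a microsomal glutathione transferase, at 392 in normoxia and 566 in hypoxia (0.51), and the list's median was -0.10. Of 37 RNA-binding and splicing factors 27 lay below 0 (median -0.23), with the splicing factor gene *SRSF5* at 1507 in normoxia and 726 in hypoxia (-1.04) and *HNRNPAB* at 7180.4 in normoxia and 3863 in hypoxia (-0.89). The other probe sets of *SRSF5* also lay below 0.

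Growth lists were mixed. Of 34 genes of ribosome biogenesis 26 lay below 0 (median -0.22) and none was 2-fold different. *NOP56*, a nucleolar protein of RNA methylation, was at 2809 in normoxia and 1424 in hypoxia (-0.97) and *ODC1*, the first enzyme of polyamine synthesis and a MYC target, at 7306 in normoxia and 4551 in hypoxia (-0.68). *MYC* itself was at 654 in normoxia and 1136 in hypoxia (0.78). Of 51 cytosolic ribosomal protein genes 32 were above 0 (median 0.019, or -0.071 with each array centred). Of 36 translation factor genes 23 lay below 0 (median -0.042), and 29 DNA repair genes were split, with 15 above 0 and 14 below. Of 37 proteasome genes 25 lay below 0 (median -0.13). In DNA replication and the cell cycle 32 of 52 did (median -0.11), with the polymerase gene *POLA1* at 136 in normoxia and 59.3 in hypoxia (-1.01) and the helicase gene *MCM7* at 887 in normoxia and 528 in hypoxia (-0.73). These are uncertain, since second probe sets gave 0.33 for *POLA1* and 1.32 for *MCM7*. In the opposite direction were *CCND1*, the gene of cyclin D1, at 674 in normoxia and 1478 in hypoxia (1.11), and *CDKN1A*, the gene of the inhibitor p21, at 1618 in normoxia and 3211 in hypoxia (0.98).

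**Figure D4:**
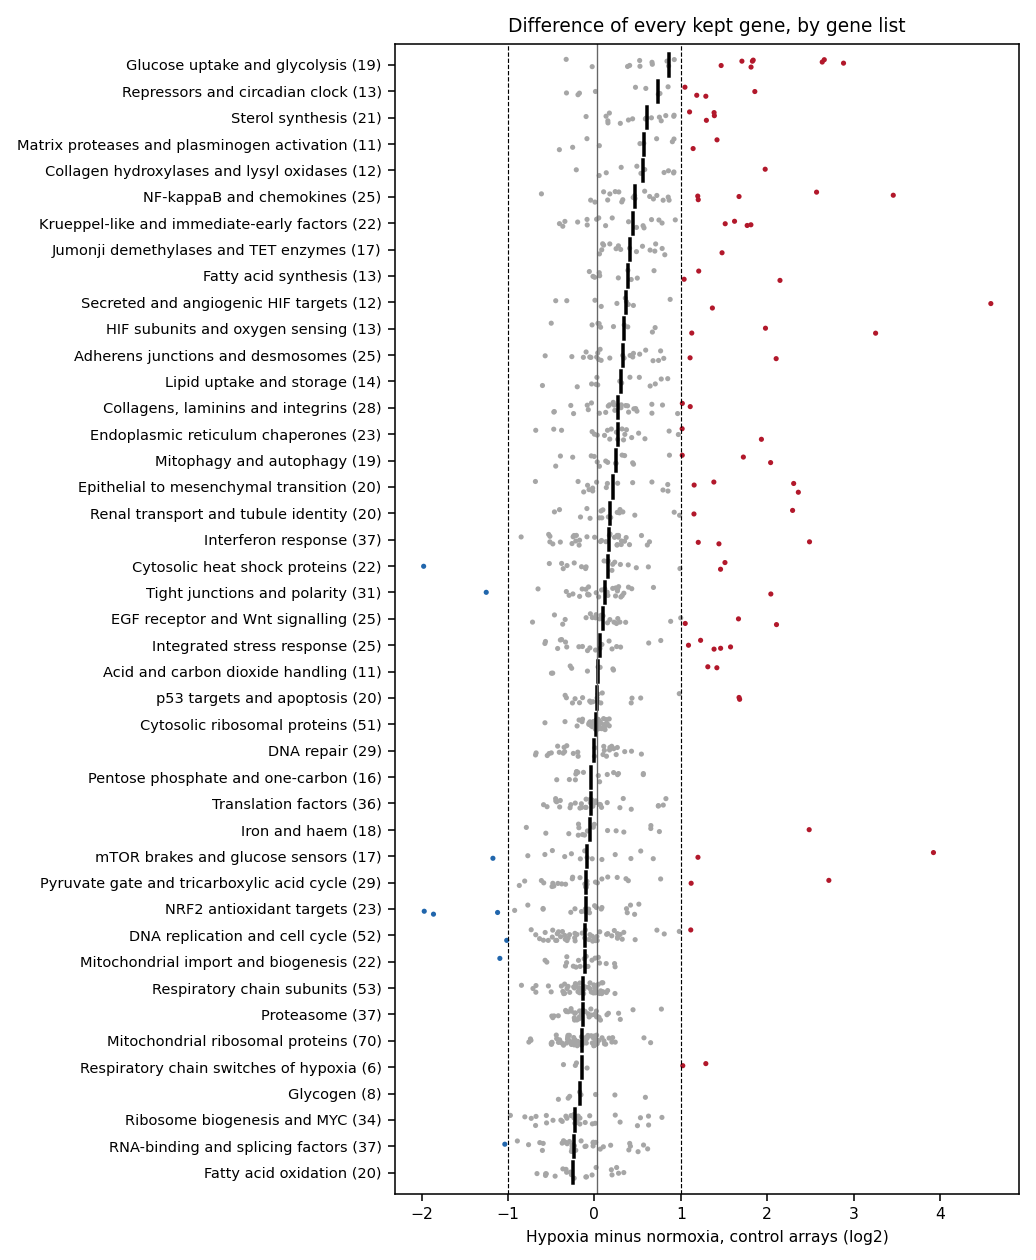
Difference between the control arrays (x axis, log2) of every kept gene in 43 gene lists, ordered by the median (black bar), with the number of genes in brackets. Red and blue points are at least 2-fold higher and lower, dashed lines mark 2-fold and the grey line the median of all genes; glycolysis lies at the top and fatty acid oxidation at the bottom, where points are narrow and few pass 2-fold.

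The number of probe sets gives a partial view of how well these differences are measured, though probe sets of a gene share the RNA and the array. Of the 297 higher genes 159 had other kept probe sets, and in 146 of them all others lay above 0. Among all genes with several probe sets, 48.0% had all others above 0. Of the 53 lower genes 28 had others, all below 0 in 21, beside 39.2% of all genes. At least 1 other probe set was itself 2-fold different in 100 of the 159 and in 7 of the 28.

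The pair of arrays labelled HIF2A knockdown holds a separate culture at each oxygen level and shares no array with the control pair. There 135 genes (1.38%) were 2-fold higher in hypoxia and 41 (0.421%) lower. Of the 297 genes higher in control cells, 258 (86.9%) were above 0 in this pair, beside 53.2% of all genes, and 86 were 2-fold higher, which is 29.0% of the control list and 63.7% of the knockdown list. Of the 53 lower genes, 47 (88.7%) were below 0, beside 46.8% of all genes, and 11 were 2-fold lower, 20.8% of the control list and 26.8% of the other. Because the genes were chosen at 2-fold in the control pair, their median of 1.31 there is fixed by the choice, while the median of 0.67 in the knockdown pair was not used in it. For the 53 lower genes these medians were -1.09 and -0.60. The knockdown label has a limit: *EPAS1* was at 47.9 in normoxia and 32.6 in hypoxia on these arrays. Control values were 44.6 in normoxia and 116 in hypoxia, so it was lower than control in hypoxia but not in normoxia. These are low intensities, where a fall is hard to read. By RT-qPCR the paper reports strong depletion of *EPAS1* mRNA in the knockdown line it put on arrays.

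Gene groups differed in how the pairs compared, which was not tested. Glycolysis had medians of 0.86 in control and 0.77 in knockdown cells, with 8 and 9 genes 2-fold higher. Sterol synthesis had 0.61 and 1.05, with 4 and 11 genes 2-fold higher, so it was larger under the knockdown label. NF-κB and chemokine genes had 0.47 and -0.12, and matrix proteases 0.57 and -0.059. *PTGS2* was at 6408 in normoxia and 6191 in hypoxia in knockdown cells, so that its normoxic value there lay above the control one. *INHBA* was likewise at 3763 and 2059.6 and *SNAI2* at 1218 and 1266. For the mitochondrial ribosome the medians were -0.14 and 0.024, for splicing factors -0.23 and -0.013, and for respiratory chain subunits -0.13 and -0.051. By median, the lean of these lists towards lower values was thus smaller or not seen in the knockdown pair. By count the respiratory chain was close, with 16 of 53 genes above 0 in control and 19 in knockdown cells. The medians of the proteasome (-0.13 and -0.10) and of fatty acid oxidation (-0.25 and -0.13) lay below 0 in both pairs. By contrast, *ADM* (3.55), *PDK1* (3.09), *EGLN3* (2.91), *CIRBP* (-1.29) and *NQO1* (-2.72) had large differences there in the direction of the control pair. Other genes with large control differences had the opposite sign there. Among these were *TMEM139* (-2.36 in control and 0.60 in knockdown cells), *UGT1A6* (-1.86 and 0.17), *OR8S7* (-1.59 and 0.15) and *ANKRD1* (2.38 and -0.36). Of the 297 higher and 53 lower genes, 258 and 47 kept their sign in the knockdown pair.

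**Figure D5:**
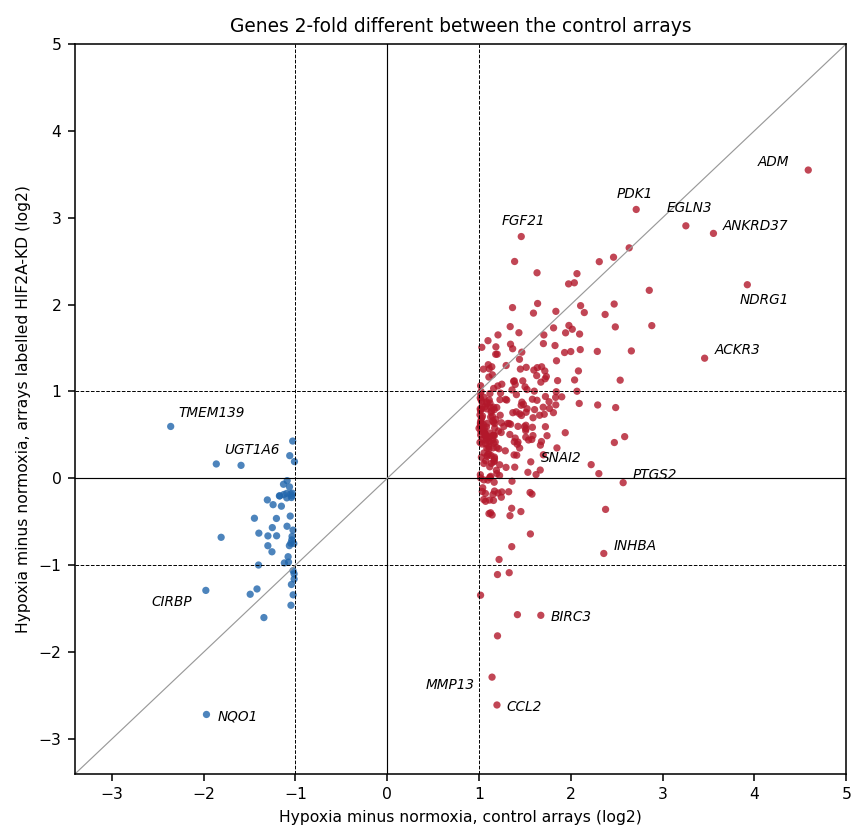
Difference between hypoxia and normoxia (log2) in the control arrays (x axis) and in the arrays labelled HIF2A knockdown (y axis) for the 350 genes 2-fold different in control cells, red higher and blue lower. Dashed lines mark 2-fold and the grey diagonal equality; 258 of 297 red points lie above 0 on the y axis, and *CCL2*, *MMP13* and *BIRC3* lie below -1.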

How the data were processed

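RNA from MDCK cells was measured on Affymetrix canine arrays, 1 per condition, and the authors deposited 1 linear intensity per probe set and array. No background correction, scaling or software is named in the labels or methods read here, and the number of arrays limits the precision. Groups were taken from the sample titles. Of 42924 probe sets, the 29254 with 1 gene symbol in the platform annotation were named, and for each gene the kept probe set with the highest mean over the 4 arrays was used. A probe set was kept if at least 1 of its 4 intensities was 28.75 or more, the table's median. Differences were taken as log2(intensity + 16) and counted at a log2 difference of 1, with no test. The members and the 48 gene lists were chosen with earlier results of these data known. Named genes are the 20 largest differences in each direction without LOC symbols (5 such genes were 2-fold different), list members with the largest differences or that define a pathway, and genes named by the study. The counting code was run on simulated data, copies of 1 array with little noise and large shifts put into bright genes. Such a run cannot show how well dim genes or differences near the limit are counted. Alternatives were pseudocounts of 1 and 64, quantile normalization, median centring, no filter or one at the 75th percentile, other choices of probe set and a 1.5-fold limit. The planned count of hypoxia response element letters was not run, as no promoter sequence was used here. *PLOD2* is not analysed here. Python 3.11.15, numpy 2.4.6, pandas 2.3.3 and matplotlib 3.10.9 were used.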

Additional observations from a re-analysis of the deposited data

Results flagged for a closer look

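In 8 genes hypoxia went with a 2-fold difference in opposite directions in control cells and in cells labelled HIF2A knockdown, and these differences were not tested, since each side has 1 array. All 8 were higher in hypoxia in control cells and lower in the knockdown pair. They include the inhibitors of apoptosis and of NF-κB, *BIRC3* (log2 difference 1.67 in control and -1.58 in knockdown cells) and *NFKBIA* (1.20 and -1.11). The chemokine gene *CCL2* had 1.20 and -2.61, and *GBP5*, a guanylate-binding protein gene induced by interferon, 1.20 and -1.81. Of genes that act on the matrix, *PLAU*, the urokinase gene, had 1.42 and -1.57, the collagenase gene *MMP13* 1.14 and -2.29, and the laminin gene *LAMA3* 1.02 and -1.34. The adaptor gene *BCAR3* had 1.33 and -1.09. In normoxia, all 8 had a higher intensity on the array labelled HIF2A knockdown than on the control array.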

How the results depend on the processing

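The 297 higher and 53 lower genes became 461 and 134 with a pseudocount of 1, 177 and 16 with 64, and 995 and 421 at a limit of 1.5-fold. A filter at the 75th percentile left 31 lower genes among the 5360 tested. With the other settings the counts stayed within 1.5 times, and the share of higher genes was 75.6% with median centring and 70.3% at the 1.5-fold limit. *ASB2* turned to 0.052 with no filter, where another probe set stands for the gene, and *KLC1* to 0.15 with the mean of its probe sets.

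Of 48 list medians 39 kept their sign under these alternatives, and the 9 that changed had reported medians of at most 0.21 in size. Larger moves in list medians were as follows. The mean of probe sets gave 1.35 for glycolysis, 0.17 for acid and carbon dioxide handling and 0.074 for the pentose phosphate and one-carbon list, and the dimmest probe sets, an alternative added after the data were seen, gave 1.47 for glycolysis. The filter at the 75th percentile gave 0.13 for adherens junctions, -0.19 for DNA repair, -0.22 for the cell cycle, 0.73 for the mesenchymal transition, 0.53 for oxygen sensing, 0.75 for Krüppel-like factors, 0.52 for lipid storage, 0.80 for NF-κB, -0.16 for the pentose phosphate list, -0.25 for the tricarboxylic acid cycle and 0.61 for renal transport. No filter gave -0.079 for acid handling, 0.16 for adherens junctions, -0.19 for DNA repair, -0.015 for the mesenchymal transition, -0.0032 for glycogen, 0.17 for Krüppel-like factors, 0.062 for fibroblast markers, 0.28 for matrix proteases and 0.48 for repressors and clock genes. A pseudocount of 64 gave 0.18 for lipid storage, 1.13 for fibroblast markers, 0.13 for mitophagy and 0.45 for repressors and clock genes. Filters change which genes are tested, and the cause of the other moves was not tested.

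No paired analysis was possible because each condition has 1 array, and leaving out an array leaves no comparison. Differences of weakly detected genes depend on the pseudocount.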

Other observations

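Further gene families were chosen after their values were seen and are given as values only, beside 4565 of all 9749 genes below 0 (5602 with each array centred) and 5182 above. Of 8 *HOX* genes that passed the filter, which set position along the body axis, 7 lay below 0, with a median difference of -0.31 in control and -0.17 in knockdown cells, and *HOXB9* was at 0.30. The 5 *HOXA* genes among them all lay below 0. *HOXA5* was at 1164 in normoxia and 561 in hypoxia (-1.03), and *HOXA4* at 295 and 156 (-0.86). Of 14 intraflagellar transport genes, which build cilia, 12 lay below 0 (median -0.19), with *IFT74* at 983 and 618 (-0.66) and *IFT57* at 856 and 562 (-0.60), and the median in knockdown cells was -0.0039. Of 15 *CFAP* genes of cilia and flagella 12 lay below 0 (median -0.24), with 0.041 in knockdown cells. No gene of either ciliary family was 2-fold different.

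Of 13 *DUSP* genes, which encode dual-specificity phosphatases, 12 lay above 0 (median 0.50) and 3 were 2-fold higher, with a median of 0.20 in knockdown cells. Of 9 *EXOSC* genes of the RNA exosome 8 lay below 0 (median -0.25, and -0.20 in knockdown cells), as did 17 of 23 *POLR* genes of RNA polymerases (-0.21 and -0.095) and 10 of 14 *ALDH* genes of aldehyde dehydrogenases (-0.24 and -0.11).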
